A study of Caenorhabditis elegans with 6 samples.

Results

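The homeobox genes that carry a ceh name (C. elegans homeobox) were examined in descendants of the QR neuroblast, a migrating cell of the first-stage Caenorhabditis elegans larva whose surviving progeny are neurons. The set took every gene of the deposited count table named ceh followed by a number, leaving out ceh-13, ceh-20, ceh-40 and ceh-43, and held 55 of 14700 genes. The ΔN-BAR-1 group carried mab-5(gk670), huIs166, ayIs9 and huIs179, and the control group carried mab-5(gk670), huIs166 and ayIs9, so huIs179 was the labelled difference and the mutation of mab-5, a Hox gene of Q cell migration, was common to both. Larvae had been fed for 7 hours after arrest at the first stage, and each of the 3 libraries per group came from a pool of 2000 cells. The labels give neither the make-up of huIs179 nor whether each library had a culture of its own. The p-values therefore measure library-to-library spread alone, and that spread may be technical. The series set out to find targets of canonical Wnt signalling, the pathway in which BAR-1, a β-catenin, acts on transcription with the TCF factor POP-1.

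Homeobox genes encode transcription factors that bind DNA through a homeodomain, and in the worm many of them fix the identity of single neuron types. They fall into classes by the sequence of the homeodomain and its companion domains. The CUT class (ONECUT and CUX genes) is expressed throughout the nervous system, where its members act redundantly on genes that all neurons use. BarH and NK-like genes, paired-like genes, sine oculis-type genes and POU and LIM genes mostly act in restricted sets of neurons, muscle or gland cells. The order below follows these classes.

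Library totals were 190078, 222664 and 237644 estimated transcripts in ΔN-BAR-1 replicates 1 to 3, and 154785, 254362 and 68431 in control replicates 1 to 3. Levels are given as CPM, counts scaled to a common library size, with the TMM correction for differences in library composition. Because 3′ ends were counted, no term for transcript length enters. Of 13 listed genes of the Q lineage, 13 were detected in numbers that allowed a test. Of these, 2 were higher with ΔN-BAR-1 (mec-3 and mig-1), beside 1.57% of all genes tested, and 0 were lower. Markers of other cells were present as well. The 14 listed body wall muscle markers summed to 6479 to 20830 CPM in ΔN-BAR-1 libraries and 8341 to 16350 CPM in control libraries, and none of the 9 tested among them changed. The 8 pharynx markers, ceh-22 among them, summed to 203 to 397 CPM with ΔN-BAR-1 and 370 to 447 CPM in control libraries. Seam and hypodermis markers, of which 11 were measured, summed to 234 to 676 CPM with ΔN-BAR-1 and 369 to 478 CPM in control libraries. The 8 intestine markers reached 20.3 to 48.9 CPM with ΔN-BAR-1 and 16.5 to 71.0 CPM in control libraries, with the intestinal regulator elt-2 at 0 in every library. The part of these cells in the results below was not tested. In pools of this kind, fewer cells of a type and less RNA per cell cannot be told apart.

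Of the 55 ceh genes, 35 had at least 1 count in some library, 6 had enough counts to be tested, 29 were detected below the filter on low counts and 20 were silent. The detected share was 63.6% of the ceh genes, against 73.1% of all genes measured. The filter asked for 48.5 CPM (10 counts in a library of median size) in at least 3 libraries. This limit uses the total of all genes in each library without TMM, so it is not on the scale of the levels given here. Just inside it lay ceh-58 and ceh-100, with 72 and 90 counts in all, and just outside it ceh-88 and ceh-39, with 42 and 40. Among those tested, 1 of 6 changed (edgeR quasi-likelihood test, Benjamini-Hochberg adjusted p below 0.05 over all genes), beside 1.65% of 3447 genes overall. That gene was higher, as were 1.57% of all genes tested. ceh-31 and ceh-58 passed the filter through their ΔN-BAR-1 libraries alone, so such genes had to differ to be tested, and the count of 1 in 6 carries that condition.

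**Figure D1:**
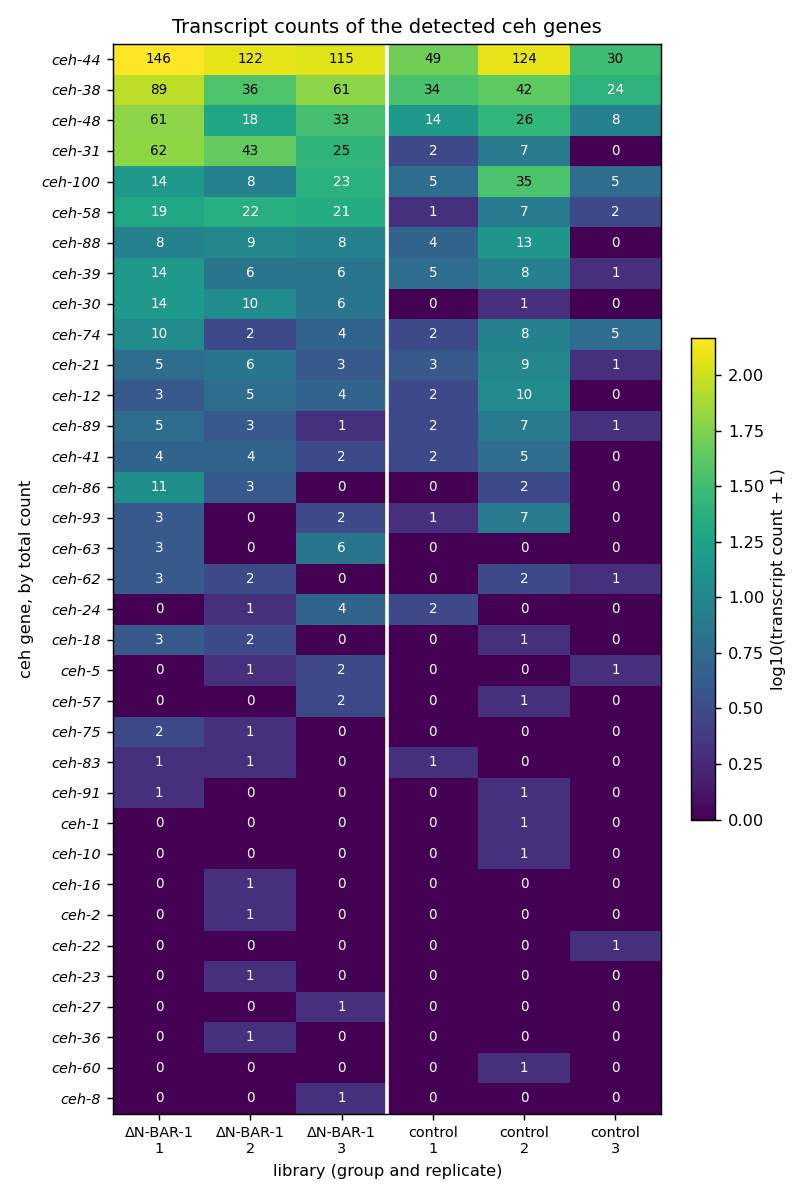
Rounded transcript counts (printed, and coloured by log10 of the count plus 1) of the 35 detected ceh genes, in rows by total, in the 3 ΔN-BAR-1 and 3 control libraries, in columns. ceh-44 and ceh-38 lead in both groups, ceh-31 and ceh-30 hold 25 to 62 and 6 to 14 counts in ΔN-BAR-1 libraries against 0 to 7 and 0 to 1 in control libraries, and the lowest 10 rows hold 1 count each.

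The BarH-type gene ceh-31 rose with ΔN-BAR-1. BarH genes are named after a Drosophila pair that acts in eye and sensory organ development. The ΔN-BAR-1 libraries held 62, 43 and 25 transcripts of ceh-31 and the control libraries 2, 7 and 0. On the CPM scale these were 337, 219 and 122 in ΔN-BAR-1 replicates 1 to 3, and 14.2, 28.8 and 0 in control replicates 1 to 3. Every ΔN-BAR-1 library lay above every control library, and the ΔN-BAR-1 libraries themselves were spread widely, with replicate 1 highest and replicate 3 lowest. The mean was 226 ± 107 CPM in ΔN-BAR-1 and 14.3 ± 14.4 CPM in control libraries (SD, n = 3 each), with the log2 fold change at 3.52 ± 0.60 (SE; adjusted p = 0.00337 by edgeR), ninth by p among all genes tested. With 9 control transcripts in all, the size of the change is loosely fixed: the ratio of the pooled counts was 10.98, with an exact 95% interval of 5.61 to 24.5 that covers counting error only, and the log2 fold change was 4.41 without control replicate 2. The call was kept without any single library, and was lost with limma-voom, where the log2 fold change was 3.61 and the adjusted p 0.160.

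Touch neuron markers moved with it. The sum of 10 listed touch neuron genes, one of them the homeobox gene mec-3, was 4011, 3873 and 2747 CPM in ΔN-BAR-1 replicates 1 to 3 and 966, 962 and 1153 CPM in control replicates 1 to 3. Of these 10, 5 passed the filter and 5 rose, beside 1.57% of all genes tested, but 2 of the 5 passed through ΔN-BAR-1 libraries alone and so had to differ. The touch channel subunit gene mec-4 had 4, 2 and 0 counts with ΔN-BAR-1 and 0 in every control library, and did not pass without a filter (edgeR adjusted p = 0.727). A further subunit gene, mec-10, had 5, 1 and 1 counts with ΔN-BAR-1 and 0 in every control library (without a filter, edgeR adjusted p = 0.664). The remaining listed genes below the filter, mec-2, mec-6 and mec-17, had overlapping groups. None of them passed without a filter (edgeR adjusted p = 0.866, 0.33 and 0.754). The 10 listed ciliated sensory neuron markers summed to 9920, 7142 and 6350 CPM with ΔN-BAR-1 and 11060, 7704 and 12150 CPM in control libraries. None of the 5 tested among them changed. Glia markers, of which 5 were measured, summed to 538 to 925 CPM with ΔN-BAR-1 and 838 to 955 CPM in control libraries. The part of RNA of touch neurons or of these other cells in the result for ceh-31 was not tested.

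ceh-30, the other BarH gene of the set, was nearly absent from control libraries and present in every ΔN-BAR-1 library. Its product is known to protect the male CEM neurons from programmed cell death. It lies next to ceh-31 on the opposite strand in the Ensembl annotation, and the annotated bounds of these genes do not overlap. There were 14, 10 and 6 transcripts of ceh-30 in ΔN-BAR-1 replicates 1 to 3, and 0, 1 and 0 in control replicates 1 to 3. The levels were 76.1, 50.8 and 29.4 CPM with ΔN-BAR-1, against 0, 4.11 and 0 CPM in control libraries, so the groups lay apart and kept the same order of replicates within ΔN-BAR-1 as ceh-31. The gene fell below the filter on low counts. In the fit with no filter it was called (edgeR adjusted p = 0.0296), one of 2 ceh genes called there beside ceh-31, against 0.94% of 10747 genes. The ratio of pooled counts was 22.8, with an exact 95% interval for counting error of 3.79 to 930. It was no longer called when any of the 3 control libraries was omitted, nor without ΔN-BAR-1 replicate 1 or replicate 2 (edgeR adjusted p between 0.0826 and 0.280). Thinning all libraries to the smallest total (adjusted p = 0.299) and the replicate number as a block (adjusted p = 0.0719) also ended the call by edgeR. The fitted log2 fold change, 4.14 without a filter, was 4.73 after thinning, 4.28 with the block and 3.74 to 6.04 without single libraries, and with 2 of the 3 control libraries at 0 it depends on the fit. Similarity between the 3′ ends of ceh-30 and ceh-31 was not examined here.

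**Figure D2:**
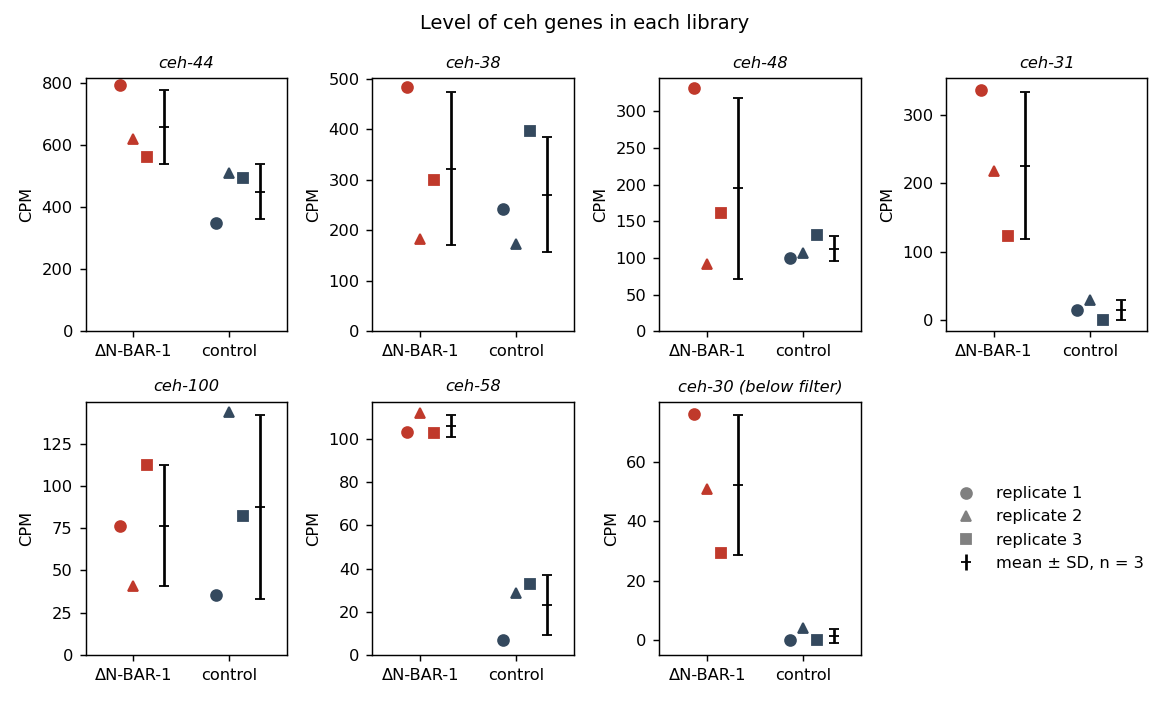
Level in CPM (y axis) of the 6 tested ceh genes and of ceh-30 in ΔN-BAR-1 libraries (left, red) and control libraries (right, blue), 1 point per library with the replicate as its symbol and the mean ± SD beside them. ceh-44, ceh-31, ceh-58 and ceh-30 show no overlap between the groups, while ceh-38, ceh-48 and ceh-100 do.

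The remaining BarH and NK-like genes were low or silent. The class had 16 members in the set, of which 12 were detected and ceh-31 alone was tested. ceh-12, the HB9 homologue that acts in VB motor neurons, had 3, 5 and 4 counts in ΔN-BAR-1 libraries and 2, 10 and 0 in control libraries, with overlapping levels. ceh-63 had 3, 0 and 6 counts with ΔN-BAR-1 and 0 in every control library. The exact 95% interval of the ratio of its pooled counts, for counting error only, begins at 1.5, and without a filter it did not pass (edgeR adjusted p = 0.537). It overlaps tag-52 on the same strand, so its reads may not be separable from those of that gene. ceh-24, an NK2 gene of vulval muscles, had 5 counts in ΔN-BAR-1 and 2 in control libraries, and ceh-62 had 5 and 3. ceh-5 had 3 and 1 counts. ceh-1, ceh-2, ceh-16 (the engrailed homologue of the seam), ceh-22 (the NK2 gene of pharyngeal muscle) and ceh-27 had 1 count each over all 6 libraries.

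The 6 rows of the CUT class, all detected, made up 65.3% of 1120 ceh transcripts in ΔN-BAR-1 libraries and 72.9% of 528 in control libraries. These shares include the ceh-44 row, which may also hold counts of cone-1, a gene at the same locus. With the ceh-44 row left out, the class held 47.2% of 737 transcripts with ΔN-BAR-1 and 56.0% of 325 in control libraries. None of the 3 tested members passed the test by edgeR, by DESeq2 or by limma-voom, and none had an unadjusted p below 0.05, which 11.6% of all genes tested had.

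The ceh-44 row was the most abundant of the set. It stood at 794, 620 and 563 CPM in ΔN-BAR-1 replicates 1 to 3 and at 348, 510 and 494 CPM in control replicates 1 to 3. All ΔN-BAR-1 libraries lay above all control libraries, with the gap between the closest ones small beside the spread within either group. On the log2 scale the fold change was 0.55 ± 0.31 (SE), with an edgeR adjusted p of 0.558. The name of this CUX gene is among the RefSeq symbols but not among the Ensembl names. Its locus is shared with cone-1, so the row may hold counts of either gene. In mammals the CUX1 locus likewise encodes a Golgi protein beside the homeodomain factor.

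The ONECUT gene ceh-38 had 484, 183 and 299 CPM in ΔN-BAR-1 replicates 1 to 3, against 242, 173 and 395 CPM in control replicates 1 to 3. The groups overlapped, although ΔN-BAR-1 replicate 1 lay above every control library. The difference on the log2 scale was 0.33 ± 0.40 (SE, with an edgeR adjusted p of 0.873). It turned to −0.06 without ΔN-BAR-1 replicate 1. ceh-38 overlaps tra-2 on the opposite strand in the annotation, and whether counting used strand is not given in the sources used here.

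ceh-48, a further ONECUT gene, had 332, 91.5 and 162 CPM with ΔN-BAR-1 and 99.4, 107 and 132 CPM in control libraries. The ΔN-BAR-1 libraries lay on both sides of the control libraries, which were close together. Its log2 fold change was 0.81 ± 0.46 (SE; edgeR adjusted p = 0.556), and 0.22 without ΔN-BAR-1 replicate 1. That replicate held the highest level of ceh-44, ceh-38, ceh-48 and ceh-39 among all 6 libraries.

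The other ONECUT genes, ceh-39, ceh-21 and ceh-41, are near neighbours on 1 strand and were all below the filter. ceh-39, one of the X signal elements through which worms count X chromosomes, had 14, 6 and 6 counts in ΔN-BAR-1 libraries and 5, 8 and 1 in control libraries. ceh-21 had 5, 6 and 3 counts with ΔN-BAR-1 and 3, 9 and 1 in control libraries. ceh-41 had 4, 4 and 2 with ΔN-BAR-1 and 2, 5 and 0 in control libraries. In each of these genes the CPM values of the groups overlapped.

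ceh-58, for which no class is used here, stood higher with ΔN-BAR-1 in every library and narrowly missed the test. It had 19, 22 and 21 counts in ΔN-BAR-1 replicates 1 to 3, and 1, 7 and 2 counts in control replicates 1 to 3. In CPM these were 103, 112 and 103 with ΔN-BAR-1, against 7.10, 28.8 and 32.9 in control libraries. The ΔN-BAR-1 libraries were nearly equal, unlike those of ceh-31. At such counts, counting error is wider than this spread, so the closeness does not show an even level. Means were 106 ± 5.08 CPM in ΔN-BAR-1 and 22.9 ± 13.9 CPM in control libraries (SD, n = 3 each), 2.22 ± 0.59 apart on the log2 scale (SE; edgeR adjusted p = 0.0578). Over 13 alternatives the adjusted p ran from 0.0362, without ΔN-BAR-1 replicate 1, to 0.409, without control replicate 1, where the log2 fold change was 1.77. The ratio of pooled counts was 4.71, with an exact 95% interval for counting error of 2.40 to 10.3. With ceh-44 and ceh-31 it made up the 3 of 6 tested ceh genes whose groups did not overlap, beside 17.4% of all genes tested, and the filter condition on ceh-31 and ceh-58 holds for this count too.

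**Figure D3:**
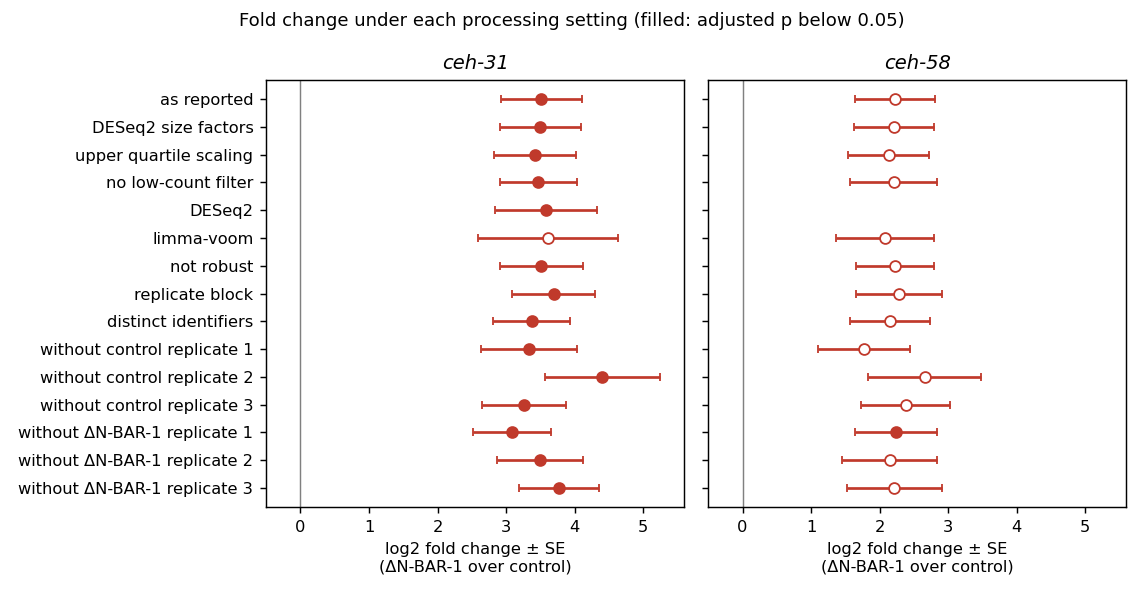
Log2 fold change ± SE (x axis, ΔN-BAR-1 over control) of ceh-31 and ceh-58 under each processing setting in which they were tested (rows), with filled points where the adjusted p was below 0.05. ceh-31 stays between 3.09 and 4.41 and is open only with limma-voom, and ceh-58, with no adjusted p from DESeq2, stays between 1.77 and 2.66 and is filled only without ΔN-BAR-1 replicate 1.

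ceh-100 was the remaining tested gene, and its groups overlapped fully. It had 76.1, 40.7 and 113 CPM in ΔN-BAR-1 replicates 1 to 3 and 35.5, 144 and 82.3 CPM in control replicates 1 to 3. Its log2 fold change was −0.26 ± 0.53 (SE; by edgeR, adjusted p = 0.925), and it turned to 0.47 without control replicate 2 and to 0.01 without ΔN-BAR-1 replicate 2. Among unclassed genes below the filter, ceh-88 had 25 counts in ΔN-BAR-1 and 17 in control libraries, ceh-74 had 16 and 15, ceh-89 had 9 and 10, and ceh-93 had 5 and 8. ceh-86 had 11, 3 and 0 counts in ΔN-BAR-1 libraries and 0, 2 and 0 in control libraries, most of them in ΔN-BAR-1 replicate 1. ceh-57, ceh-75, ceh-83, ceh-91 and ceh-23 had 1 to 3 counts in all. ceh-88 overlaps a coding gene on the same strand and ceh-74 one on the opposite strand.

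Paired-like, sine oculis-type, POU, LIM and PBC genes, many of them identity factors of head, pharyngeal or body neurons, were at or near 0. Of 8 paired-like genes, 3 were detected, namely ceh-8, ceh-10 (which acts in the AIY and CAN neurons) and ceh-36 (an OTX gene of the AWC and ASE neurons), with 1 count each. The POU gene ceh-18 had 5 counts in ΔN-BAR-1 and 1 in control libraries, and ceh-60, a PBC gene of the intestine, had 1 count, in a control library. The 3 sine oculis-type genes (ceh-32, ceh-33 and ceh-34) were silent.

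The 20 silent genes were ceh-6, ceh-7, ceh-9, ceh-14, ceh-17, ceh-19, ceh-32, ceh-33, ceh-34, ceh-37, ceh-45, ceh-51, ceh-53, ceh-54, ceh-76, ceh-79, ceh-81, ceh-84, ceh-87 and ceh-92. Among them, ceh-14 is the LIM gene of the thermosensory AFD and several tail neurons, ceh-17 the Phox2 homologue of ALA, ceh-34 a determinant of pharyngeal neurons, ceh-37 an OTX gene of AWB, ceh-6 a POU gene needed in the excretory canal cell, and ceh-51 an NK-like gene of early mesoderm. A count of 0 over the group allowed a level of up to 5.13 CPM in ΔN-BAR-1 and 6.75 CPM in control libraries (3 counts, counting error only). In single libraries that limit ran from 14.7 to 16.3 CPM in ΔN-BAR-1 and from 12.3 to 49.4 CPM in control libraries, so genes present at a few CPM could not be told from absent ones.

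The number of ceh genes detected followed library depth among control libraries, but not among ΔN-BAR-1 libraries, where the deepest had the fewest. At least 1 count was found for 22, 25 and 21 ceh genes in ΔN-BAR-1 replicates 1 to 3 and for 16, 23 and 12 in control replicates 1 to 3. The mean was 22.7 ± 2.08 in ΔN-BAR-1 and 17 ± 5.57 in control libraries (SD, n = 3 each; two-sided exact permutation p = 0.3, where 3 against 3 libraries cannot go below 0.1). Reduced to the smallest total, the expected numbers were 18.6, 16.6 and 15.3 with ΔN-BAR-1 and 12.1, 15.9 and 12 in control libraries (exact permutation p = 0.2), which overlapped. By group, 23 genes were detected in both, 8 in ΔN-BAR-1 libraries only and 4 in control libraries only. The group totals were unequal, at 650386 estimated transcripts with ΔN-BAR-1 and 477578 in control libraries. The share of all genes detected in 1 group only was not computed, so these counts are not read as a difference. Among genes detected in 1 group only, ceh-63 alone had more than 3 counts.

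**Figure D4:**
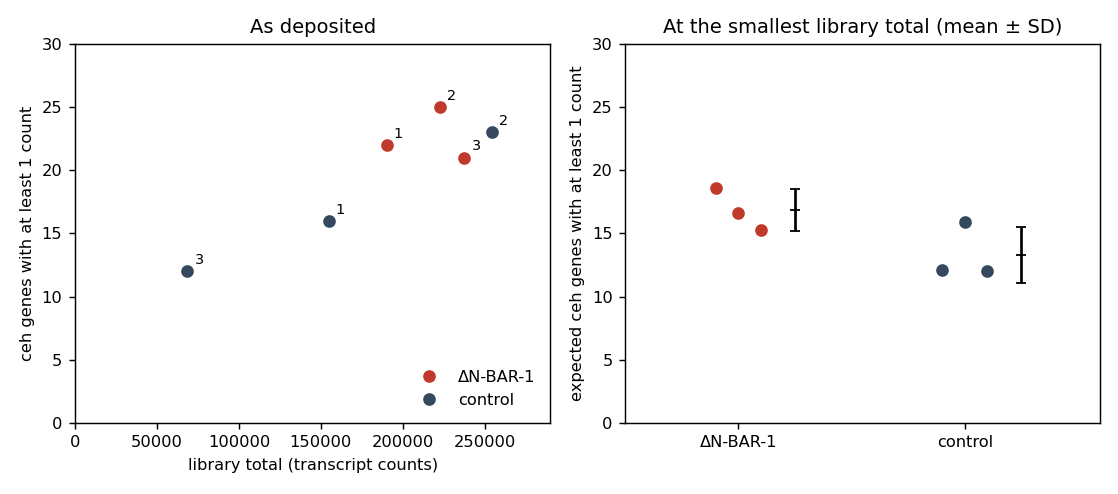
Number of ceh genes with at least 1 count against library total (x axis, transcript counts), with replicate numbers beside the points (left), and the number expected at the smallest library total, with mean ± SD (right), for ΔN-BAR-1 (red) and control (blue) libraries. The shallowest library, control replicate 3, has the fewest genes at 12, and at the smallest library total the groups overlap, at 15.3 to 18.6 with ΔN-BAR-1 and 12 to 15.9 in control.

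The summed level of all ceh genes was 2614, 1571 and 1616 CPM in ΔN-BAR-1 replicates 1 to 3 and 916, 1312 and 1318 CPM in control replicates 1 to 3. The groups did not overlap, the mean difference was 752 CPM, and the two-sided exact permutation p was 0.1, the smallest that 3 against 3 libraries allow. Without ceh-31 the difference was 540 CPM, again with no overlap (exact permutation p = 0.1), and without ΔN-BAR-1 replicate 1 it was 411 CPM. The sum without ceh-31 still held ceh-58 and the ceh-44 row, both with groups apart, and that row may also hold counts of cone-1. All genes other than the 6 tested summed to 489, 305 and 255 CPM with ΔN-BAR-1. In control libraries they summed to 170, 321 and 181 CPM, so the groups overlapped (exact permutation p = 0.3). The CUT class summed to 1734, 976 and 1077 CPM in ΔN-BAR-1 and 760, 880 and 1054 CPM in control libraries, which overlapped (exact permutation p = 0.2). ceh-31 took 11.6% of ceh transcripts in ΔN-BAR-1 libraries and 1.70% in control libraries, and ceh-58 took 5.54% and 1.89%.

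**Figure D5:**
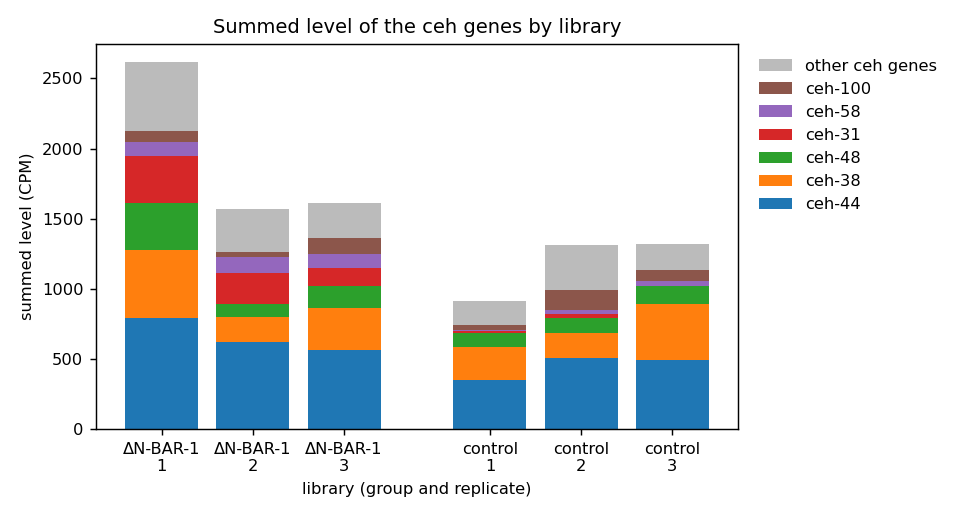
Summed level of the ceh genes in CPM (y axis, bars from 0) in the 3 ΔN-BAR-1 and 3 control libraries, split into the 6 tested genes and all other ceh genes. The ΔN-BAR-1 bars reach 1571 to 2614 CPM and the control bars 916 to 1318 CPM, and the ceh-31 segment is 122 to 337 CPM with ΔN-BAR-1 and at most 28.8 CPM in control libraries.

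Homeobox genes outside the set served as the nearest comparison. Of 37 such genes in the table, 28 were detected, 9 were tested and 2 changed, both higher with ΔN-BAR-1, beside 1.57% of all genes tested that were higher. These were the Distal-less homologue ceh-43 (log2 fold change 2.21 ± 0.39 SE, edgeR adjusted p = 0.00374) and the LIM gene mec-3, which specifies touch neurons (2.71 ± 0.41 SE, edgeR adjusted p = 0.000832). Next by p came the ZEB-type gene zag-1, at 2808 ± 510 CPM in ΔN-BAR-1 and 1652 ± 383 CPM in control libraries (SD, n = 3 each; edgeR adjusted p = 0.309). The Hox gene mab-5, mutated in both groups, followed at −0.38 ± 0.34 on the log2 scale (SE; edgeR adjusted p = 0.782), and the TALE gene unc-62 with −0.22 ± 0.30 (SE; edgeR adjusted p = 0.881).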

How the data were processed

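Messenger RNA of QR descendants was counted in 6 libraries. Per the labels' protocols, libraries followed CEL-seq and CEL-seq2, which tag 3′ ends. The deposited values are estimated counts of transcripts for each gene, not normalised between libraries. The sources used here name no aligner, build or counter. Inverting a correction for 256 molecular identifiers gave whole numbers (tolerance 0.02) for at least 99.9% of values above 0 per library; for ΔN-BAR-1 replicate 3, whose smallest value is 1 where the others have 1.00196, this needed a rescaling by that factor (57.5% without it). No ceh gene was near saturation, the highest value being 146.

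Estimated counts were rounded to whole numbers and fitted for all genes with edgeR 4.0.16 (R 4.3.3): TMM, filterByExpr (min.count 10, min.total.count 15), robust quasi-likelihood F test, two-sided, group as the only term, Benjamini-Hochberg threshold 0.05. CPM use the TMM-scaled total of the genes passing the filter, and SE derive from the F statistic. Simulated counts (3218 genes after the filter) used the same library-to-library spread for every gene, so recovery in the real data may differ. They gave 9.28% recovery of 2-fold and 68.0% of 4-fold changes, with 5 false calls. Changed genes lost at the filter counted as not recovered. Libraries of 1 group differed by more than counting error (chi-square per degree of freedom 2.34 to 8.53). Single values were compared by exact permutation over libraries.

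Every ceh gene of the set is accounted for, and a ceh gene without a row in the deposited counts could not be examined. Of 17 listed BarH and NK-like genes 16 had a row, and of 7 listed CUT genes 6 had one. All 55 names of the set matched RefSeq symbols, and 54 the Ensembl names. Classes and marker lists are hand-written. Members and lists were chosen with earlier results of these data known. Coordinates are not given, since no build is named. Of other homeobox genes, those called and the next by p, up to 5, are named. Alternatives were other scalings (DESeq2 size factors, upper quartile), other filters, DESeq2 1.42.0, limma-voom (limma 3.58.1), a non-robust fit, the replicate number as a block, omission of each library, thinning, distinct identifiers and a threshold of 0.1. The fits of ceh-30 without a filter that changed a second choice were added after seeing the data.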

Additional observations from a re-analysis of the deposited data

How the results depend on the processing

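Genes changed numbered 57. The count was 113 at a threshold of 0.1, 101 without a filter, 35 with the stricter filter (min.count 30), 9 with limma-voom, 35 after thinning to the smallest total and 19 with the replicate number as a block, and 16 to 121 when single libraries were left out; the stricter filter left 1414 genes to test and thinning 1420, and no cause was tested for the rest. The count of changed ceh genes, 1, was 2 at the threshold of 0.1 (with ceh-58) and without a filter (with ceh-30). It was 0 with the stricter filter and after thinning, where ceh-31 did not enter the test, and 0 with limma-voom, where ceh-31 had a log2 fold change of 3.61; it was 1 to 2 without single libraries. Other homeobox genes changed numbered 1 to 2 without single libraries, 1 without control replicate 1. ceh-31 was called in 13 of the 14 alternatives that tested it. Log2 fold changes without single libraries ran from −0.68 to 0.47 for ceh-100 and from −0.058 to 0.63 for ceh-38. The fold changes of ceh-44 and ceh-48 kept their sign in every alternative that tested them, with no call. With the replicate block ceh-31 stood at 3.69 (edgeR adjusted p = 0.02); apart from ceh-30 the block changed no call of a ceh gene. Same-numbered libraries correlated at −0.15, −0.08 and −0.03 after group means were removed, so the numbers were not taken to pair the libraries. The differences in detected ceh genes (3.17 to 8.67 over 9 alternatives) and in summed level (411 to 933 CPM over 8) stayed positive. DESeq2 gave no adjusted p for ceh-58, nor for ceh-30 without a filter. In control replicate 3, 1 count equals 16.5 CPM, so genes at lower levels could not be read there.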

Other observations

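The ratio of ceh-31 to ceh-30 transcripts was 4.43, 4.30 and 4.17 in ΔN-BAR-1 replicates 1 to 3. The counts themselves ranged from 25 to 62 for ceh-31 and from 6 to 14 for ceh-30. At such counts of ceh-30, counting error is wider than the spread of these ratios, so their closeness does not show a constant ratio. The ratio of ceh-31 to ceh-44 in the same libraries was 0.425, 0.352 and 0.217. Both sets of ratios were computed after the values were seen, they rest on 3 libraries, and neither was tested.

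The gene next to ceh-58 on the same strand is ceh-57, which had 0, 0 and 2 counts in ΔN-BAR-1 replicates 1 to 3 and 0, 1 and 0 in control replicates 1 to 3, while ceh-58 had 19, 22 and 21 with ΔN-BAR-1 and 1, 7 and 2 in control. Its levels gave no sign of the difference seen in ceh-58, at a depth where a few CPM could not be detected.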
